A study of Rattus norvegicus with 36 samples.

Results

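A set of 9 genes grouped around p53 was followed across mimics of miR-125b and its 3′ isomiRs. It held the regulators *Mdm2* and *Mdm4* and the arrest genes *Cdkn1a*, *Ccng1* and *Gadd45a*. The autophagy genes *Tp53inp1*, *Tp53inp2* and *Dram2* and the growth gene *Sesn1* completed it. Whether each gene is a p53 target in these cells was not tested. The 9 genes were taken by their symbol from the 24275 genes listed in the tables, and all 9 had 1 entry each. The cells were H9C2, an established rat cardiac myoblast line. They received a mimic control (MC), a mimic of miR-125b, or a mimic of an isomiR that carries an added A (Plus A) or lacks 1, 2 or 3 bases (Trim A, Trim AG, Trim AGU). Each mimic was given at 25 nmol/L for 24 h, followed by a further 24 h in normoxia or hypoxia. The hypoxic cells were also moved to serum-free low-glucose medium while the normoxic cells received fresh medium, so oxygen and medium cannot be told apart. Poly-A RNA was sequenced in 36 libraries, 3 for each of 12 groups. Counts were used for 33 libraries in 11 groups, since for Normoxia MC only the authors' group mean was used. All groups come from 1 cell line, and nothing in the sources used here says whether the 3 libraries of a group came from separate cultures, so the p-values measure only the spread between these libraries, which may be technical.

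The p53 protein is a transcription factor that is kept low by the ubiquitin ligase MDM2 and is held inactive by the related protein MDM4. When it is released, for example by DNA damage or by metabolic stress, it switches on genes that stop the cell cycle, repair DNA, drive apoptosis or change autophagy and growth. *Mdm2* is itself a target, so that the pathway limits its own activity. In cardiac cells the pathway is known for its part in the response to low oxygen and to loss of nutrients. miR-125b is a microRNA known for targets in this pathway.

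The mimics differ at the 3′ end alone and share the seed. The mature rat miR-125b sequence is given by RefSeq for the copy at 29732588 to 29732609 on chromosome 11 of GRCr8 (plus strand), and the isomiRs were written from it by adding an A or removing the last 1, 2 or 3 bases. Capitals mark the seed, bases 2 to 8 from the 5′ end.
miR-125b: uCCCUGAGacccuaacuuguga
Plus A: uCCCUGAGacccuaacuugugaa
Trim A: uCCCUGAGacccuaacuugug
Trim AG: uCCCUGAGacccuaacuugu
Trim AGU: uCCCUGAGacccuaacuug
Their lengths are 22, 23, 21, 20 and 19 bases in this order. The ordered sequences of the synthetic mimics were not used here.

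The libraries held 28361216 to 42672584 counts, and the 3 Hypoxia Trim AG libraries were the deepest (at least 39940087 against at most 34505938 in the others). The lowest count of a member in any library was 205 and the highest 41586. Of 7 hypoxia genes in the tables, *Slc2a1*, *Bnip3*, *Vegfa* and *Ankrd37* were higher in all hypoxic than in all normoxic libraries, and *Ldha*, *Pdk1* and *Egln3* overlapped between the conditions. Of 8 myoblast genes, *Myod1*, *Myog*, *Cdh15* and *Vim* were above 10 CPM (counts scaled to the library total) in every library, *Des* was 0.855 to 4.98 CPM, and *Myf5*, *Myf6* and *Pax7* were at most 0.549 CPM. Of 7 cardiomyocyte genes, *Myh6*, *Nkx2-5* and *Nppa* were below 1 CPM, whereas *Tnnt2* was 9.22 to 316, *Gata4* 8.72 to 16.4, *Tnni3* 0.855 to 3.43 and *Actn2* 0.0501 to 2.30 CPM. Their sum was 29.1 to 331 CPM in hypoxia and 27.4 to 60.0 CPM in normoxia. *Myod1* itself was 119.6 to 146 CPM in normoxia and 17.1 to 66.4 CPM in hypoxia, without overlap, and its part in the oxygen results was not tested. The summed level of the 7 fibroblast genes was 9379 to 45220 CPM in hypoxia and 23835 to 41328 CPM in normoxia. The summed levels were 0.918 to 2.45 and 1.01 to 2.92 CPM for the 4 leukocyte genes and 0.69 to 4.60 and 0.862 to 1.74 CPM for the 2 of 5 endothelial genes in the tables, of which *Cd68* reached 2.43 and *Tek* 4.46 CPM. For the 4 Schwann or neural genes they were 23.1 to 64.3 and 10.0 to 23.9 CPM. The part of these markers in the results was not tested. In bulk RNA fewer cells of a type and less RNA per cell cannot be told apart.

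Of the 33 libraries, 2 went against their labels in 1 gene and 1 stood apart from its group. *Cav1*, the caveolin 1 gene, was picked after its values were seen because it separated Plus A from miR-125b in hypoxia, at 93.9 to 100.2 CPM against 241 to 246 CPM. In normoxia the library labelled Plus A replicate 1 had 269 CPM and its mates 98.0 and 98.3 CPM, and the library labelled miR-125b replicate 1 had 102 CPM and its mates 282 and 263 CPM. By the distance defined next, these 2 libraries lay 0.288 and 0.290 from their mates. Each was the largest of its group, yet within the range of other groups. Whether their labels were swapped was not tested. Hypoxia Trim AGU replicate 2 lay 0.725 from its mates (root mean square difference of log2(CPM + 1) over 13162 genes, mean over its 2 mates), whereas the mean distances in the other groups were 0.225 to 0.353. The highest of the latter was Hypoxia Trim A replicate 1, with its mates at 0.304 and 0.288. Normoxia Plus A replicate 1, Normoxia miR-125b replicate 1 and Hypoxia Trim AGU replicate 2 were each left out in turn. Where this changed whether a member passed the adjusted p or was called, its values with and without are given.

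On the FPKM scale, which divides by gene length, the order of the levels over all 33 libraries was *Cdkn1a* (mean 252 FPKM), *Ccng1* (191), *Gadd45a* (135), *Mdm2* (104), *Tp53inp2* (25.1), *Mdm4* (23.0), *Tp53inp1* (21.0), *Dram2* (10.1) and *Sesn1* (3.01). The genes of cell cycle arrest and *Mdm2* therefore stood well above the autophagy and growth genes. The ratio of the highest to the lowest group mean in CPM was largest for *Gadd45a* at 8.23, followed by *Cdkn1a* at 4.58, *Mdm2* at 3.55 and *Tp53inp1* at 3.34. It was smallest for *Mdm4*, *Dram2* and *Sesn1*, at 1.64, 1.58 and 1.52. *Mdm2*, *Cdkn1a* and *Gadd45a* were higher in each of the 18 hypoxic libraries than in any of the 15 normoxic ones, and the other 6 genes overlapped between the oxygen conditions. With the 11 groups put in order of their mean, the libraries of neighbouring groups overlapped in 3 of 10 places for *Cdkn1a*, 5 for *Mdm2*, *Ccng1* and *Gadd45a*, 7 for *Tp53inp2*, 8 for *Mdm4* and *Tp53inp1*, and all 10 for *Dram2* and *Sesn1*. Neither the split by oxygen nor the overlap of neighbours was counted over all genes. Both are therefore a description and not a trait particular to these genes.

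**Figure D1:**
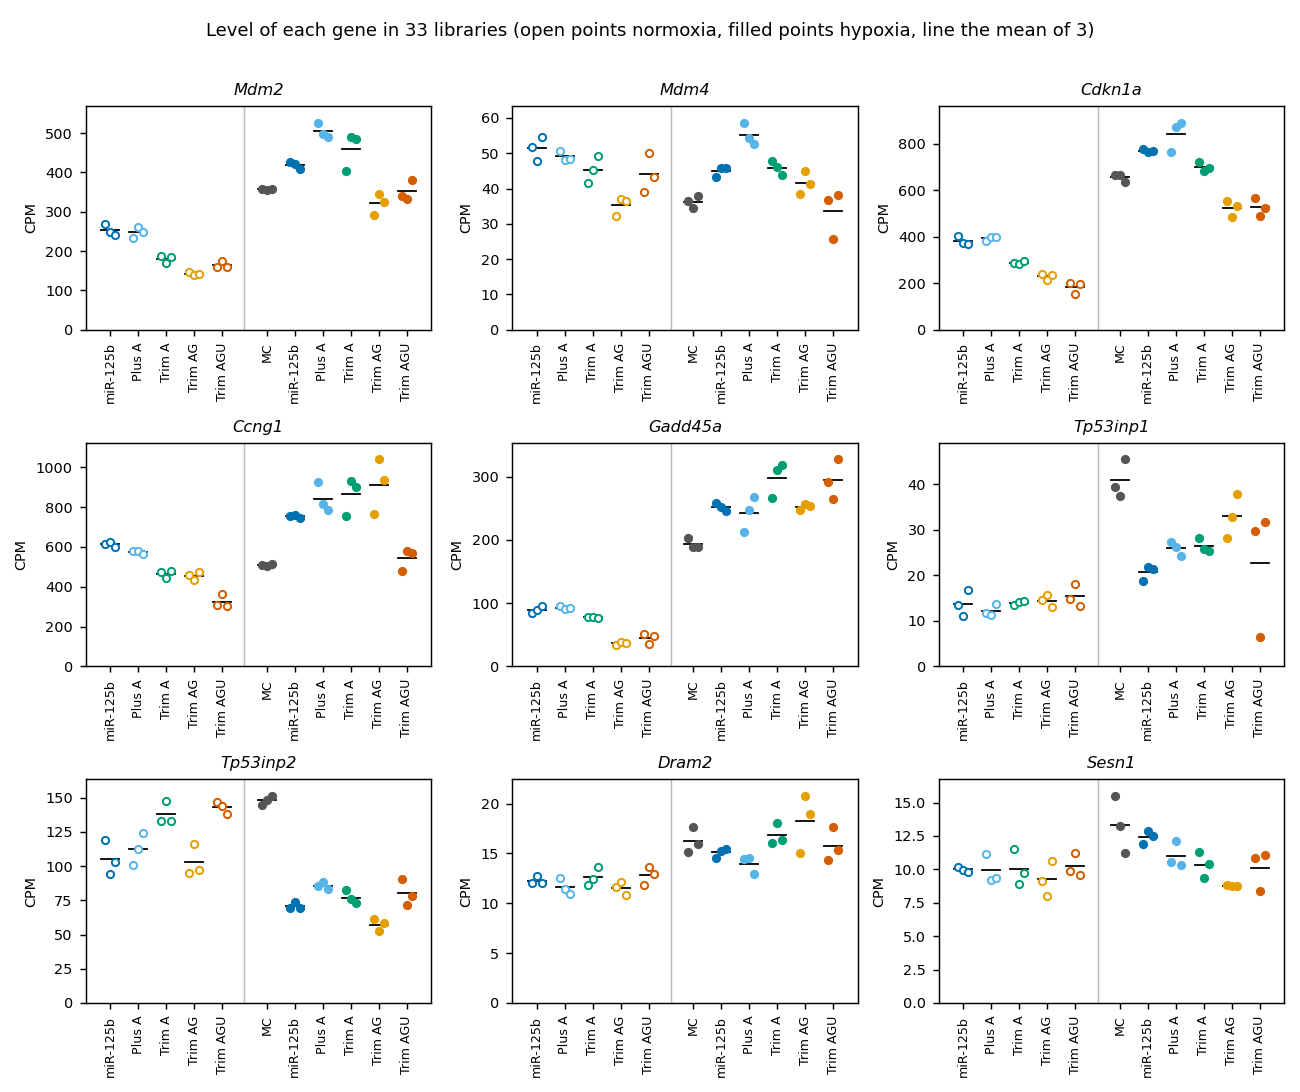
Level of each gene in CPM (vertical axis, from 0) in every library, with the 5 normoxic groups left of the grey line (open points) and the 6 hypoxic groups right of it (filled points), and a black line at the mean of 3 libraries. *Mdm2*, *Cdkn1a* and *Gadd45a* separate by oxygen, *Tp53inp2* is highest in Hypoxia MC at 144.6 to 151 CPM, and 1 Hypoxia Trim AGU library has *Tp53inp1* at 6.43 CPM.

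The mimics were first compared with MC in hypoxia, which asks how the pathway stood in hypoxic cells that carried more miR-125b or an isomiR. *Ccng1* rose under 4 of the 5 mimics and *Tp53inp2* fell under all 5, whereas *Mdm2*, *Cdkn1a*, *Sesn1* and *Dram2* were called under none. *Gadd45a* rose under Trim A and Trim AGU, *Mdm4* rose under Plus A, and *Tp53inp1* fell under miR-125b and Plus A. Here and below, a gene was called where the adjusted p of edgeR's quasi-likelihood test was below 0.05 and the change at least 1.5-fold. By this rule 3 of the 9 members were called under miR-125b (background over all genes tested 21.9%), 4 under Plus A (24.8%) and 3 under Trim A (28.1%). Trim AG (37.2%) and Trim AGU (23.8%) had 2 each. The members' share was above the background under Plus A (44.4%) and miR-125b (33.3%), near it under Trim A (33.3%) and Trim AGU (22.2%), and below it under Trim AG (22.2%). Since 1 member of 9 is 11.1%, these differences rest on few genes. The members were also chosen with earlier results of these data known, so the shares are a description. All 5 comparisons share the 3 MC libraries. Without the fold threshold 7, 7, 6, 6 and 2 members passed the adjusted p in the same order. As many members had an unadjusted p below 0.05. Over all genes tested that p was reached by 9603 of 15143, 9228 of 15159, 8898 of 15183, 9759 of 15315 and 6575 of 15026.

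Among the regulators, *Mdm2* (ENSRNOG00000006304, chromosome 7, 60719066 to 60743328, minus strand, coordinates as the tables give them with the build not named) was 358, 354 and 359 CPM in the 3 MC libraries. It was 427, 422 and 409 CPM under miR-125b and 527, 498 and 490.4 CPM under Plus A. All libraries of both mimics lay above all MC libraries, yet the log2 fold changes of 0.27 ± 0.028 (SE), adjusted p = 8.18e-06 and 0.52 ± 0.043 (SE), adjusted p = 4.77e-06 stayed below 1.5-fold. Trim A (404, 489.8 and 484 CPM) gave 0.41 ± 0.091 (SE), adjusted p = 0.00578. Under Trim AG (292, 346 and 326 CPM) and Trim AGU (339.5, 333 and 382 CPM) the log2 fold changes of -0.087 and 0.12 did not pass the test (adjusted p = 0.407 and 0.4). *Mdm4* (ENSRNOG00000009696, chromosome 13, 49792794 to 49828720, minus strand), whose product binds p53 without degrading it, was 36.5, 34.5 and 37.9 CPM under MC and 58.7, 54.3 and 52.7 CPM under Plus A. Its rise under Plus A was 0.63 ± 0.062 (SE), adjusted p = 1.47e-05, and without Plus A replicate 1 it was 0.58, below 1.5-fold. The values under miR-125b, Trim A and Trim AG were 0.35, 0.38 and 0.26 on the log2 scale, each past the adjusted p and below the fold threshold, and that under Trim AGU was 0.022 ± 0.13 (SE), adjusted p = 0.913.

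Among the genes of arrest and repair, *Ccng1* (ENSRNOG00000003256, chromosome 10, 25903911 to 25910325, minus strand) encodes cyclin G1, which recruits a phosphatase to MDM2. It was 509, 503 and 514 CPM under MC. Under miR-125b it was 756, 763 and 747 CPM, under Plus A 924, 815 and 785 CPM, under Trim A 755, 933 and 903 CPM and under Trim AG 766, 1041 and 935 CPM. No library of these 4 groups overlapped with MC. The log2 fold changes were 0.61 ± 0.025 (SE), adjusted p = 8.74e-09 under miR-125b and 0.75 ± 0.061 (SE), adjusted p = 4.24e-06 under Plus A. They were 0.81 ± 0.094 (SE), adjusted p = 0.000243 under Trim A and 0.91 ± 0.12 (SE), adjusted p = 0.000189 under Trim AG. For miR-125b it was 0.57 with library totals in place of TMM scaling, just under the fold threshold. Trim AGU at 479.6, 581 and 571 CPM overlapped with MC (log2 fold change 0.25 ± 0.14 (SE), adjusted p = 0.218, and 0.13 without replicate 2).

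*Gadd45a* (ENSRNOG00000005615, chromosome 4, 97782512 to 97784842, minus strand), which slows the cell cycle and aids DNA repair under stress, was 203, 188 and 188 CPM under MC and higher in every library of the 5 mimics. It was 266, 311 and 319 CPM under Trim A and 292, 264 and 327 CPM under Trim AGU. These were the called rises, with log2 fold changes of 0.67 ± 0.091 (SE), adjusted p = 0.000492 and 0.75 ± 0.10 (SE), adjusted p = 0.00383, the latter 0.76, adjusted p = 0.000207 without Trim AGU replicate 2. miR-125b, Plus A and Trim AG gave 0.42, 0.35 and 0.45, past the adjusted p and below 1.5-fold. *Cdkn1a* (ENSRNOG00000000521, chromosome 20, 6351458 to 6358864, plus strand), which encodes the cyclin-dependent kinase inhibitor p21, was 667, 664 and 634 CPM under MC. Its log2 fold change was 0.27 ± 0.03 (SE), adjusted p = 1.69e-05 for miR-125b and 0.38 ± 0.056 (SE), adjusted p = 0.000231 for Plus A, but -0.26 ± 0.076 (SE), adjusted p = 0.0154 for Trim AG, so that the sign differed between the longer mimics and Trim AG. The 764, 871 and 890.2 CPM of Plus A lay above MC in every library, and the 553, 482 and 532 CPM of Trim AG below MC in every library. Trim A and Trim AGU gave 0.14 and -0.18 and did not pass (adjusted p = 0.0973 and 0.222).

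Of the autophagy genes, *Tp53inp2* fell under all 5 mimics and *Tp53inp1* under 2. *Tp53inp2* (ENSRNOG00000018225, chromosome 3, 150910398 to 150918525, plus strand), whose product helps to form autophagosomes, was 145, 148 and 151 CPM under MC. It was 69.4, 73.5 and 69.7 CPM under miR-125b, 85.4, 88.2 and 83.3 under Plus A, 82.2, 75.6 and 72.8 under Trim A, 61.4, 52.3 and 58.2 under Trim AG and 90.5, 71.8 and 78.1 under Trim AGU, with no overlap with MC in any of them. The log2 fold changes were -1.02 ± 0.035 (SE), adjusted p = 2.09e-09 under miR-125b, -0.77 ± 0.045 (SE), adjusted p = 4.54e-07 under Plus A and -0.90 ± 0.068 (SE), adjusted p = 3.11e-05 under Trim A. The fall was -1.31 ± 0.077 (SE), adjusted p = 3.20e-06 under Trim AG and -0.75 ± 0.10 (SE), adjusted p = 0.00305 under Trim AGU. No other member was called under all 5 mimics. Leaving out Trim AGU replicate 2 gave -0.73, adjusted p = 0.000219 for Trim AGU.

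*Tp53inp1* (ENSRNOG00000007964, chromosome 5, 24410863 to 24416888, plus strand), a stress-induced partner of p53 that also acts in autophagy, was 39.5, 37.5 and 45.5 CPM under MC. It was 18.8, 21.8 and 21.4 CPM under miR-125b and 27.4, 26.3 and 24.2 CPM under Plus A, below every MC library. The falls were -0.94 ± 0.079 (SE), adjusted p = 1.82e-06 and -0.63 ± 0.082 (SE), adjusted p = 0.0001. That of Plus A was -0.56 without MC replicate 3 and -0.58 without Plus A replicate 3, both below 1.5-fold, and its adjusted p was 0.0574 when all 33 libraries were fitted together. Trim A (28.1, 25.8 and 25.4 CPM) gave -0.58 ± 0.087 (SE), adjusted p = 0.000841, at the edge of the fold threshold. It was -0.60 without MC replicate 1, -0.64 without MC replicate 2 and -0.62 without Trim A replicate 1, each past it. Trim AG (28.2, 32.8 and 37.8 CPM) gave -0.24 ± 0.12 (SE), adjusted p = 0.106 and overlapped with MC. Under Trim AGU the values of 29.8, 6.43 and 31.6 CPM were split by replicate 2. With it the log2 fold change was -0.75 ± 0.48 (SE), adjusted p = 0.275, and without it -0.33, adjusted p = 0.024, below 1.5-fold, with a standard error of 0.10.

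*Dram2* (ENSRNOG00000017744, chromosome 2, 209161047 to 209188622, plus strand), a lysosomal membrane protein gene of autophagy, was 15.1, 17.7 and 15.9 CPM under MC, and its log2 fold changes of -0.19 to 0.23 passed the adjusted p under none of the 5 mimics. At unadjusted p below 0.05 the count for *Dram2* was 0 as well, and DESeq2 called it under none. *Sesn1* (ENSRNOG00000000302, chromosome 20, 46667121 to 46758305, plus strand), which encodes sestrin 1, an inhibitor of the growth kinase mTORC1, was 15.5, 13.2 and 11.3 CPM under MC and 8.86, 8.76 and 8.72 CPM under Trim AG. Its log2 fold change there was -0.54 ± 0.13 (SE), adjusted p = 0.00732, below 1.5-fold, and it was -0.65 (adjusted p = 0.00426) without MC replicate 3 and -0.60 with library totals, both past it. Under the other 4 mimics it was -0.32 to -0.065 and did not pass.

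**Figure D2:**
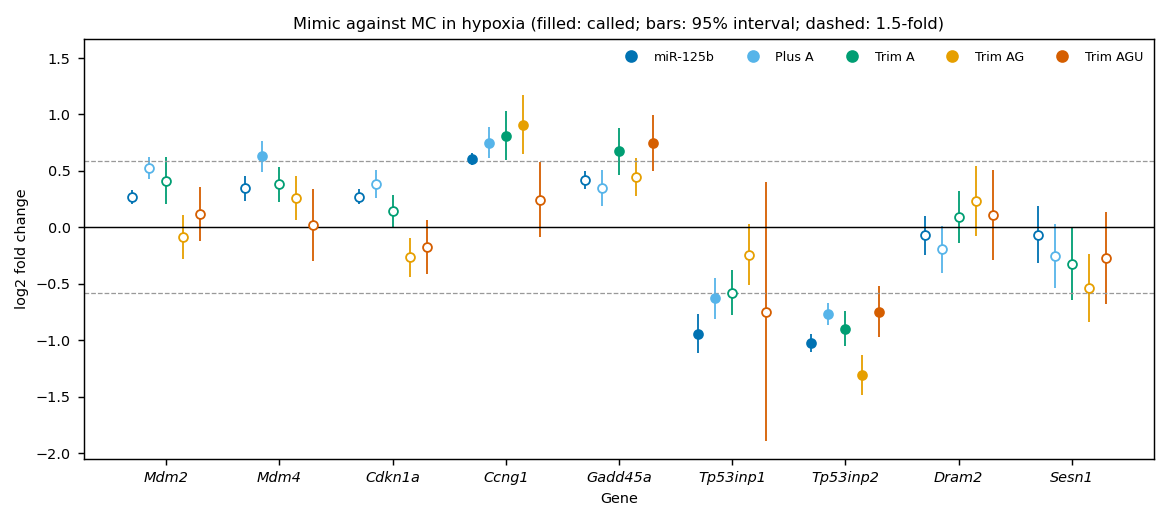
Log2 fold change against MC in hypoxia (vertical axis) of the 9 genes under the 5 mimics, with 95% intervals, filled points for called changes and dashed lines at 1.5-fold. *Ccng1* lies above 1.5-fold under 4 mimics and *Tp53inp2* below it under all 5, and the wide bar of *Tp53inp1* under Trim AGU runs from -1.89 to 0.40.

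The isomiRs were then compared with miR-125b itself, which asks what the change at the 3′ end adds. In normoxia the loss of 2 or 3 bases went with lower *Mdm2*, *Cdkn1a* and *Gadd45a*, the loss of 2 bases also with lower *Mdm4*, and the loss of 3 bases also with lower *Ccng1*. The calls were 4 of 9 members for Trim AG (background 13.9%) and 4 of 9 for Trim AGU (11.4%), all lower. They were 0 of 9 for Trim A (0.414%), with 6 at an unadjusted p below 0.05 and 3 past the adjusted p, and 0 of 9 for Plus A (0.0%), with 0 at an unadjusted p below 0.05. Over all genes 2758 of 14732 for Trim A and 404 of 14781 for Plus A reached that unadjusted p. DESeq2 also called 0 members in both. These 4 comparisons share the 3 Normoxia miR-125b libraries, of which the library labelled replicate 1 went against its label.

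*Gadd45a* was 84.8, 89.5 and 94.8 CPM under miR-125b in normoxia and 34.5, 38.1 and 36.2 CPM under Trim AG, a log2 fold change of -1.35 ± 0.063 (SE), adjusted p = 4.24e-06. It was 51.1, 35.7 and 47.7 CPM under Trim AGU (-1.01 ± 0.13 (SE), adjusted p = 0.000725). Neither group overlapped with miR-125b, and without its replicate 1 the values were -1.39 and -1.04. *Cdkn1a* was 404, 374 and 369 CPM under miR-125b, 286, 281 and 293 under Trim A, 239, 213 and 236 under Trim AG and 201, 155 and 196 under Trim AGU. Its log2 fold changes were -0.41 ± 0.054 (SE), adjusted p = 0.0113 for Trim A, -0.78 ± 0.063 (SE), adjusted p = 2.93e-05 for Trim AG and -1.06 ± 0.11 (SE), adjusted p = 0.00029 for Trim AGU, or -0.36, -0.74 and -1.02 without miR-125b replicate 1. In the order of the group means, the libraries of Trim AGU, Trim AG, Trim A and miR-125b did not overlap between neighbours, so in normoxia the level of *Cdkn1a* stood lower for each base removed. The steps between isomiRs were not tested. In hypoxia its means were 522 CPM under Trim AG and 526 CPM under Trim AGU. The normoxic mean of *Gadd45a* was 36.2 CPM under Trim AG and 44.8 CPM under Trim AGU, and that of *Mdm2* 142 and 164 CPM.

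*Mdm2* was 269, 249 and 240.0 CPM under miR-125b, 188, 169.7 and 185 under Trim A, 146, 139 and 143 under Trim AG and 159, 176 and 158 under Trim AGU. It fell under Trim AG (-0.87 ± 0.06 (SE), adjusted p = 1.58e-05) and Trim AGU (-0.63 ± 0.079 (SE), adjusted p = 0.000652), and the value for Trim A was -0.47 ± 0.064 (SE), adjusted p = 0.0128. Without miR-125b replicate 1 these were -0.82, -0.58 and -0.42, and the call for Trim AGU was lost at just under 1.5-fold. *Ccng1* was 614, 624 and 601 CPM under miR-125b and 309, 362 and 303 CPM under Trim AGU, a fall of -0.92 ± 0.084 (SE), adjusted p = 0.000191 on the log2 scale. Under Trim A and Trim AG its log2 fold changes of -0.39 and -0.47 passed the adjusted p alone. Without miR-125b replicate 1 the 3 values were -0.92 for Trim AGU, -0.39 for Trim A and -0.47 for Trim AG. *Mdm4* was 51.9, 47.7 and 54.7 CPM under miR-125b and 32.3, 36.9 and 36.5 CPM under Trim AG (-0.59 ± 0.074 (SE), adjusted p = 0.000311), a call at the edge of the fold threshold that was lost without miR-125b replicate 1 (-0.58), miR-125b replicate 3 (-0.55) or Trim AG replicate 1 (-0.53). *Tp53inp2* stood higher under Trim AGU (0.43 ± 0.094 (SE), adjusted p = 0.00962), past the adjusted p and below 1.5-fold, and at 0.53 without miR-125b replicate 1. Under Trim A it gave 0.40 ± 0.087 (SE), adjusted p = 0.0571 with all libraries and 0.49, adjusted p = 0.0094 without that one. *Gadd45a* under Trim A likewise went from -0.21, adjusted p = 0.0976, to -0.24, adjusted p = 0.0459. *Tp53inp1*, *Dram2* and *Sesn1* lay between -0.16 and 0.16 under the 4 isomiRs.

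Plus A and miR-125b differed in no called member in normoxia. The log2 differences of the 9 members were -0.16 to 0.10, their 95% intervals lay within -0.52 to 0.35, and over all genes edgeR called 0 and DESeq2 1, with 404 at an unadjusted p below 0.05. Since both groups hold a library that goes against its label, the comparison was repeated without both. Then edgeR called 166 of all genes in place of 0 and still 0 of 9 members, the log2 difference of *Tp53inp2* was 0.29, adjusted p = 0.0417 and that of *Cdkn1a* 0.12, adjusted p = 0.167.

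In hypoxia the isomiRs differed from miR-125b by 1 called member in all. The calls were 1 of 9 members for Trim AG (background 19.3%) and 0 of 9 for Plus A (2.03%), Trim A (0.873%) and Trim AGU (3.75%), with 5, 4 and 5 members at an unadjusted p below 0.05, and DESeq2 also called 0 in these 3. Over all genes 4723 of 15134, 3547 of 15115 and 3691 of 15051 reached that unadjusted p. The call was *Tp53inp1*, which was 18.8, 21.8 and 21.4 CPM under miR-125b and 28.2, 32.8 and 37.8 CPM under Trim AG (0.69 ± 0.12 (SE), adjusted p = 0.00253). Without Trim AG replicate 3 it was 0.58, just below 1.5-fold. *Tp53inp1* also stood higher under Plus A (0.31 ± 0.077 (SE), adjusted p = 0.0275) and gave 0.36 ± 0.082 (SE), adjusted p = 0.0663 under Trim A, which did not pass. Under Trim AGU it was 0.18 ± 0.49 (SE), adjusted p = 0.836 with replicate 2 and 0.60, adjusted p = 0.00528 without it, which would be a call. Without that library *Cdkn1a* (-0.47, adjusted p = 0.00429), *Ccng1* (-0.49, adjusted p = 0.0109), *Gadd45a* (0.33, adjusted p = 0.0232) and *Tp53inp2* (0.28, adjusted p = 0.0401) also passed the adjusted p below 1.5-fold. With it they gave -0.46, -0.37, 0.32 and 0.27, with adjusted p of 0.0527, 0.17, 0.125 and 0.161. *Cdkn1a* was 776, 766 and 768 CPM under miR-125b and 553, 482 and 532 CPM under Trim AG (-0.54 ± 0.07 (SE), adjusted p = 0.000608), below 1.5-fold without overlap. *Mdm2* (-0.37), *Sesn1* (-0.48) and *Tp53inp2* (-0.29) also passed the adjusted p under Trim AG. For Plus A the members past the adjusted p were *Mdm2* (0.25), *Mdm4* (0.28), *Tp53inp1* and *Tp53inp2* (0.26), all higher, and the 95% intervals of its 9 differences lay within -0.40 to 0.48. For Trim A 0 members passed the adjusted p with all libraries. With 1 library left out at a time, its lowest adjusted p was 0.000288 for *Mdm2*, 5.39e-05 for *Ccng1* and 3.68e-05 for *Gadd45a*. The log2 differences of these 3 genes then reached at most 0.23, 0.30 and 0.34, below 1.5-fold, and their highest adjusted p was 0.691, 0.503 and 0.381. *Gadd45a*, lowest under Trim AG in normoxia, differed from miR-125b by 0.017 there in hypoxia (95% interval -0.13 to 0.17).

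**Figure D3:**
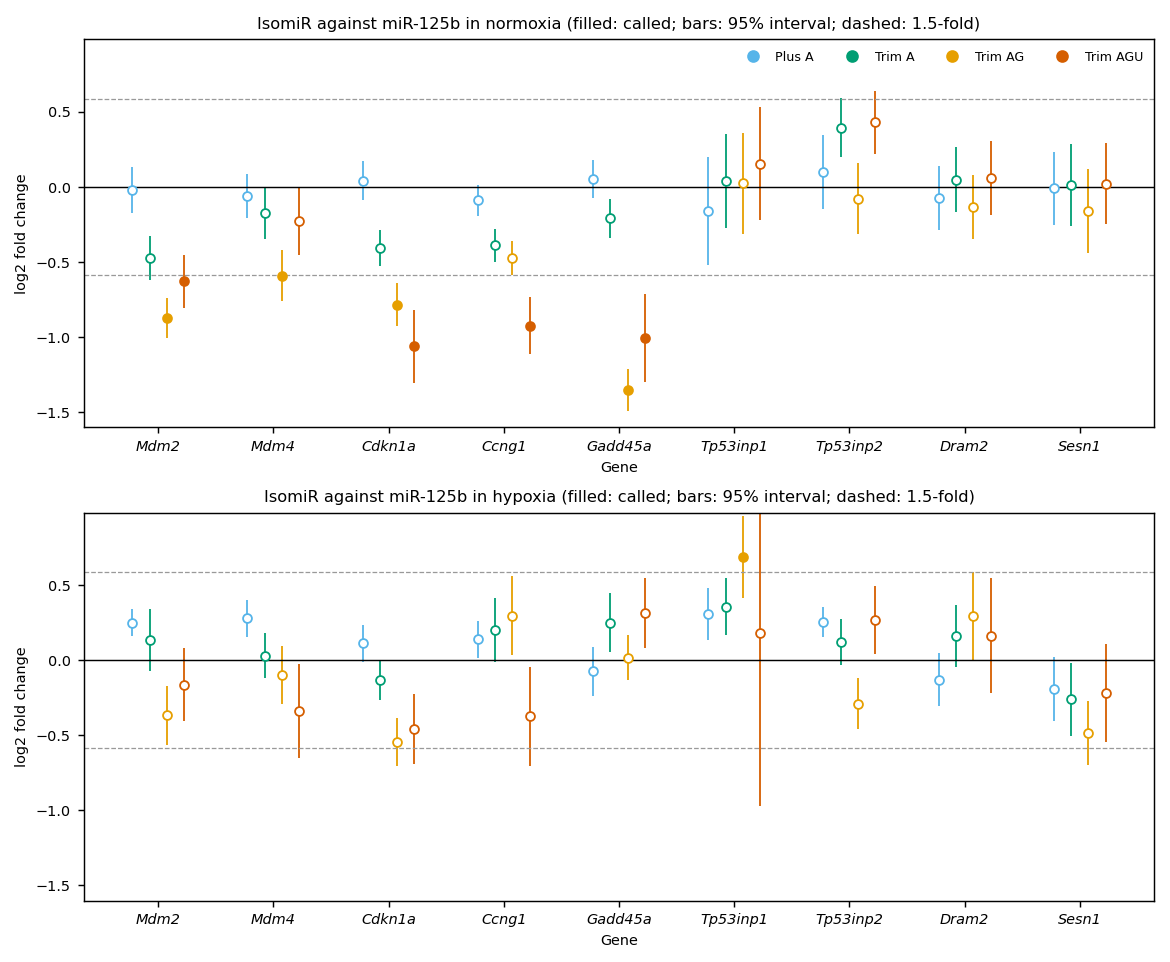
Log2 fold change of each isomiR against miR-125b (vertical axis) in normoxia (upper panel) and hypoxia (lower panel) for the 9 genes, with 95% intervals, filled points for called changes and dashed lines at 1.5-fold. In normoxia Trim AG and Trim AGU lie low for *Mdm2*, *Cdkn1a* and *Gadd45a*, down to -1.35, and in hypoxia the filled point is *Tp53inp1* under Trim AG at 0.69.

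Hypoxia was compared with normoxia under each mimic. *Mdm2*, *Cdkn1a* and *Gadd45a* rose under all 5 mimics, *Ccng1* rose under the 3 trimmed isomiRs, *Tp53inp1* rose under Plus A, Trim A and Trim AG, and *Tp53inp2* fell under 4 mimics. The calls were 4 of 9 members under miR-125b (background 20.9%) and 4 under Plus A (22.8%). Under Trim A they were 6 (26.5%), under Trim AG 7 (32.8%) and under Trim AGU 5 (27.0%). The members' shares of 44.4% to 77.8% were above the background in each of the 5 comparisons. Because the members were chosen with earlier results of these data known, this is a description. Under MC the change was not analysed here.

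*Gadd45a* had the largest change of the members under each mimic. Its means went from 89.7 ± 4.98 to 252 ± 6.04 CPM (SD, n = 3) under miR-125b, a log2 fold change of 1.41 ± 0.049 (SE), adjusted p = 1.61e-07. Under Plus A they went from 92.8 ± 2.39 to 242 ± 27.3 CPM (1.28 ± 0.08 (SE), adjusted p = 1.89e-06), and under Trim A from 77.3 ± 0.49 to 298 ± 28.7 CPM (1.87 ± 0.093 (SE), adjusted p = 1.90e-06). The rises under Trim AG and Trim AGU were larger, from 36.2 ± 1.80 to 252 ± 4.69 CPM (2.80 ± 0.082 (SE), adjusted p = 1.67e-07) and from 44.8 ± 8.08 to 294 ± 31.7 CPM (2.75 ± 0.18 (SE), adjusted p = 0.000175). Without the normoxic replicate 1 that goes against its label the rise was 1.37 under miR-125b and 1.27 under Plus A. The folds with all libraries were 2.65-fold under miR-125b and 6.98-fold under Trim AG. The larger folds came with lower normoxic levels, while the hypoxic means of the 5 mimics lay between 242 and 298 CPM.

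*Cdkn1a* rose by 0.93 under miR-125b, 0.99 under Plus A, and 1.21, 1.19 and 1.55 with 1, 2 and 3 bases removed, on the log2 scale, with adjusted p of at most 0.000599. *Mdm2* rose by 0.65, 0.92, 1.27, 1.18 and 1.14 in the same order, with adjusted p of at most 0.00106. Both genes moved in the same direction in every mimic, with no overlap between hypoxic and normoxic libraries. Without the normoxic replicate 1 that goes against its label, *Mdm2* rose by 0.70 under miR-125b and 0.85 under Plus A and *Cdkn1a* by 0.97 and 0.95. *Ccng1* rose under Trim A (0.82 ± 0.10 (SE), adjusted p = 0.000267), Trim AG (1.01 ± 0.12 (SE), adjusted p = 0.00013) and Trim AGU (0.79 ± 0.17 (SE), adjusted p = 0.0119). The last call was lost without Normoxia Trim AGU replicate 1 (adjusted p = 0.0585) or 3 (adjusted p = 0.0713), and without Hypoxia Trim AGU replicate 2 the value was 0.67. Under miR-125b and Plus A *Ccng1* gave 0.22 and 0.44, past the adjusted p and below 1.5-fold, or 0.22 and 0.42 without the normoxic replicate 1. *Mdm4*, the other regulator, was called under none and ranged from -0.36 to 0.24.

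*Tp53inp1* was 11.6, 11.4 and 13.7 CPM in normoxia and 27.4, 26.3 and 24.2 CPM in hypoxia under Plus A, a rise of 0.97 ± 0.10 (SE), adjusted p = 4.62e-05. It rose by 0.84 ± 0.085 (SE), adjusted p = 9.33e-05 under Trim A on the log2 scale and was 2.30-fold higher under Trim AG (adjusted p = 6.48e-05), and its log2 fold change was 0.51 ± 0.14 (SE), adjusted p = 0.012 under miR-125b, below 1.5-fold with all libraries and past it without Normoxia miR-125b replicate 3 (0.67). Under Trim AGU the change was 0.56 ± 0.48 (SE), adjusted p = 0.395 with all libraries and 0.97, adjusted p = 0.000756 without replicate 2, a call that this library decides. *Tp53inp2* moved the opposite way. It fell under miR-125b (-0.66 ± 0.081 (SE), adjusted p = 0.000141), Trim A (-0.92 ± 0.081 (SE), adjusted p = 4.37e-05), Trim AG (-0.84 ± 0.10 (SE), adjusted p = 0.000125) and Trim AGU (-0.80 ± 0.12 (SE), adjusted p = 0.00369), and under Plus A it gave -0.50 ± 0.083 (SE), adjusted p = 0.000751. The library labelled replicate 1 decides the miR-125b and Plus A calls, since without it they were -0.56, below 1.5-fold, and -0.60, past it. *Dram2* rose under Trim AG (0.67 ± 0.14 (SE), adjusted p = 0.00287), with 11.7, 12.1 and 10.9 CPM in normoxia and 15.01, 20.8 and 19.0 CPM in hypoxia, a call lost without Hypoxia Trim AG replicate 2 (0.56, adjusted p = 0.00482). *Sesn1* passed under none, with log2 fold changes of -0.068 to 0.23.

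**Figure D4:**
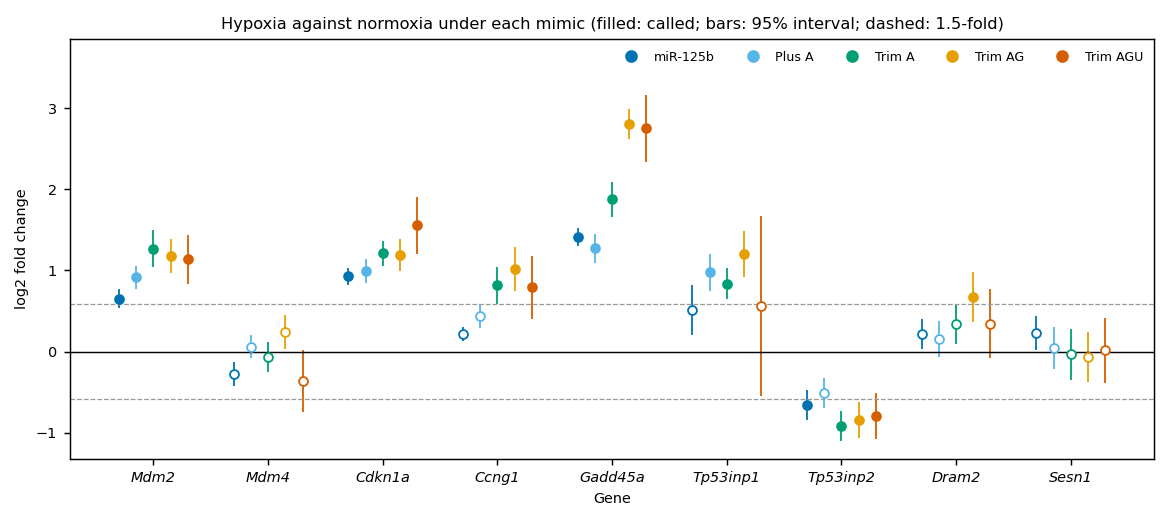
Log2 fold change of hypoxia against normoxia (vertical axis) of the 9 genes under the 5 mimics, with 95% intervals, filled points for called changes and dashed lines at 1.5-fold. *Gadd45a* reaches 2.80 under Trim AG, *Mdm2* and *Cdkn1a* are filled under all 5 mimics, and *Tp53inp2* lies below 0 throughout.

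Whether the oxygen response differed between an isomiR and miR-125b was tested as an interaction. *Gadd45a* responded more under Trim AG, by 1.36 ± 0.09 (SE), adjusted p = 3.57e-06 on the log2 scale, and more under Trim AGU, by 1.36 ± 0.17 (SE), adjusted p = 0.00776. Without Normoxia miR-125b replicate 1 these were 1.40 and 1.36, and without Hypoxia Trim AGU replicate 2 the second was 1.33, all still called. *Ccng1* (0.76 ± 0.13 (SE), adjusted p = 0.00208) also responded more under Trim AG, 0.76 without Normoxia miR-125b replicate 1. The counts were 3 of 9 for Trim AG (background 11.3%), 1 of 9 for Trim AGU (0.966%), 2 of 9 for Trim A (0.605%) and 0 of 9 for Plus A (0.0193%), the last with 4 at an unadjusted p below 0.05 and 0 by DESeq2. For Plus A 2509 of 15569 genes reached that unadjusted p. The third call for Trim AG was *Tp53inp1* (0.65 ± 0.20 (SE), adjusted p = 0.0331), which had an adjusted p of 0.0533 without Normoxia miR-125b replicate 1 and lost the call for 8 of the 12 libraries left out. The calls for Trim A were *Mdm2* (0.62 ± 0.12 (SE), adjusted p = 0.0363) and *Ccng1* (0.60 ± 0.11 (SE), adjusted p = 0.0354), with adjusted p of 0.0716 and 0.0683 without that library, and both were lost when any of the 12 libraries other than Hypoxia Trim A replicate 1 was left out. Without Hypoxia Trim A replicate 1 both calls held, at 0.715, adjusted p = 7.70e-05 for *Mdm2* and 0.70, adjusted p = 2.27e-05 for *Ccng1*. *Cdkn1a* under Trim AGU gave 0.64 ± 0.15 (SE), adjusted p = 0.0637, and 0.59, adjusted p = 0.0342 without Hypoxia Trim AGU replicate 2. Without Hypoxia Trim AGU replicate 1 it was 0.63 (adjusted p = 0.0212), and *Ccng1*, at 0.59 ± 0.18 (SE), adjusted p = 0.116 with all libraries, was then 0.71 (adjusted p = 0.0118).

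For Normoxia MC the authors' group means allow a description with no test and no error. The authors' mean of *Gadd45a*, on their normalized count scale, was 2755 for Plus A and 1648 for MC. For *Ccng1* these means were 17072 and 11779, for *Cdkn1a* 11653 and 7998, for *Mdm2* 7375 and 5537 and for *Mdm4* 1458 and 980.4. These 5 genes thus stood higher in the Plus A mean. The ratio of Plus A to MC ranged from 1.33 for *Mdm2* to 1.67 for *Gadd45a* among them, was 1.02 for *Sesn1*, and was below 1 for *Dram2* (0.886), *Tp53inp2* (0.848) and *Tp53inp1* (0.659). The Plus A mean includes the library labelled replicate 1 that goes against its label, and its part cannot be taken out of a mean.

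Other genes of the pathway were taken from lists of p53 regulators and targets. The lists were written with earlier results of these data known, so their shares are a description. The regulators that act on p53, such as kinases, ubiquitin ligases and deubiquitinases, were 32 symbols, of which 28 were tested. Against MC in hypoxia the calls were 2 higher and 1 lower under miR-125b, 3 and 2 under Plus A, 1 and 1 under Trim A, 4 and 1 under Trim AG, and 3 and 1 under Trim AGU. These are 10.7%, 17.9%, 7.14%, 17.9% and 14.3% of the list in the same order, each below the share over all genes (21.9%, 24.8%, 28.1%, 37.2% and 23.8%). Against normoxia they were 0 higher and 4 lower under miR-125b, 0 and 2 under Plus A, 3 and 3 under Trim A, 3 and 4 under Trim AG, and 5 and 4 under Trim AGU. These shares of 14.3%, 7.14%, 21.4%, 25% and 32.1% were below those over all genes (20.9%, 22.8%, 26.5%, 32.8% and 27.0%) except under Trim AGU. The list's median log2 fold change was -0.0021 to 0.19 against MC and -0.072 to 0.094 against normoxia, beside -0.016 to 0.0033 and 0.0037 to 0.02 for all genes tested. *Usp10*, a deubiquitinase that stabilises p53, rose under all 5 mimics against MC, by 0.60 to 0.90 on the log2 scale. *Prkdc*, the catalytic subunit of the DNA-dependent protein kinase, fell under all 5, with -1.30 to -0.71. *Chek2*, a checkpoint kinase that phosphorylates p53, and *Mtbp*, which encodes an MDM2-binding protein, fell in hypoxia under all 5 mimics, with -1.20 to -0.91 and -1.39 to -1.01.

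Of the arrest and repair targets, 15 of 16 were tested. The calls against MC were 0 higher and 3 lower under miR-125b, 0 and 2 under Plus A, 2 and 3 under Trim A, 5 and 4 under Trim AG, and 4 and 2 under Trim AGU, with median log2 fold changes of 0.12 to 0.32. The shares were 20%, 13.3%, 33.3%, 60% and 40%. They were near those over all genes under miR-125b and Trim A, below them under Plus A and above them under Trim AG and Trim AGU. *Xpc*, which recognises damage in nucleotide excision repair, fell under all 5 mimics against MC (-0.92 to -0.71). *Ercc5*, a nuclease of the same repair pathway, fell under 4, with -1.40 under Trim AG, and gave -0.56 under Plus A, past the adjusted p and below 1.5-fold. The calls for hypoxia against normoxia were 2 higher and 5 lower under miR-125b, 2 and 4 under Plus A, 0 and 4 under Trim A, 1 and 5 under Trim AG, and 0 and 4 under Trim AGU, with medians of -0.20 to 0.023. Here the shares were 46.7%, 40%, 26.7%, 40% and 26.7%, near those over all genes under Trim A and Trim AGU and above them under the others. *Cdc25c*, the phosphatase that starts mitosis (-1.04 to -0.87), and *Fancc* of the Fanconi anaemia pathway (-2.02 to -1.17) fell in hypoxia under all 5. So the called genes of this list mostly fell with hypoxia, whereas the arrest genes *Cdkn1a* and *Gadd45a* rose.

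Of the apoptosis targets, 14 of 21 were tested. Compared with MC the calls were 3 higher and 2 lower under miR-125b, 0 and 2 under Plus A, 3 and 1 under Trim A, 4 and 2 under Trim AG, and 4 and 1 under Trim AGU, with medians of 0.10 to 0.24. The shares of 35.7%, 14.3%, 28.6%, 42.9% and 35.7% were below that over all genes under Plus A, near it under Trim A and Trim AG and above it under the others. Compared with normoxia they were 3 higher and 2 lower under miR-125b, 1 and 2 under Plus A, 4 and 2 under Trim A, 5 and 3 under Trim AG, and 5 and 2 under Trim AGU, with medians of -0.08 to 0.22. At 35.7%, 21.4%, 42.9%, 57.1% and 50% these shares were near that over all genes under Plus A and above it under the others. *Phlda3*, an inhibitor of AKT signalling, rose against MC under 4 mimics and against normoxia under 4, with 0.54 to 0.88 and 0.33 to 1.22 over all 5. *Bax*, a pore-forming effector of apoptosis, rose in hypoxia under 4 mimics, from a mean of 154 ± 8.77 to 252 ± 10.6 CPM under miR-125b (SD, n = 3), and gave 0.23 under Plus A, which did not pass. *Eda2r*, a receptor of the tumour necrosis factor family, fell against MC under 4 mimics and rose against normoxia under 4. *Ckap2*, a mitotic spindle gene, rose against MC under 4 mimics and fell in hypoxia under all 5 (-1.48 to -0.96).

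Of the metabolism, autophagy and secreted targets, 13 of 17 were tested. Every call against MC was lower, with 0 higher and 3 lower under miR-125b, 0 and 5 under Plus A, 0 and 6 under Trim A, 0 and 6 under Trim AG, and 0 and 5 under Trim AGU, and medians of -0.67 to -0.32. The shares of 23.1%, 38.5%, 46.2%, 46.2% and 38.5% were near that over all genes under miR-125b and above it under the others. Hypoxia against normoxia gave 2 higher and 4 lower under miR-125b, 2 and 4 under Plus A, 2 and 5 under Trim A, 1 and 4 under Trim AG, and 2 and 5 under Trim AGU, with medians of -0.26 to 0.10. The shares of 46.2%, 46.2%, 53.8%, 38.5% and 53.8% were near that over all genes under Trim AG and above it under the others. *Ddit4*, an inhibitor of mTORC1 that low oxygen is known to induce, rose in hypoxia under all 5 mimics (1.31 to 1.82) and fell against MC under 4. *Vcan*, the matrix proteoglycan versican, fell against MC under all 5 (-1.03 to -0.65), and *Thbs1*, thrombospondin 1, and *Steap3*, an endosomal metal reductase, fell in hypoxia under all 5 (-2.39 to -1.33 and -1.34 to -0.81).

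Paralogs of the members had calls of their own. *Ccng2*, the paralog of *Ccng1*, fell under all 5 mimics against MC (-1.87 to -1.42), from 78.5 ± 3.73 CPM under MC to 28.7 ± 1.64 CPM under miR-125b (SD, n = 3), while *Ccng1* rose under 4. *Sesn2* rose under all 5 against MC (0.60 to 0.82), where *Sesn1* was not called. In normoxia *Sesn2* was lower under Trim AG (-1.06) and Trim AGU (-1.17) than under miR-125b, as *Gadd45a* was. *Dram1*, the paralog of *Dram2*, fell in hypoxia under all 5 mimics (-1.24 to -0.72) and against MC under 4. It is also counted among the metabolism, autophagy and secreted targets, so the shares of that list and of the paralogs are not separate. Of the 8 paralogs 7 were tested. The comparison with MC called 1 higher and 3 lower under miR-125b, 1 and 4 under Plus A, 1 and 3 under Trim A, 2 and 2 under Trim AG, and 1 and 3 under Trim AGU, with medians of -0.70 to 0.13. Of these 7 genes that is 57.1%, 71.4%, 57.1%, 57.1% and 57.1%, each above the share over all genes. That with normoxia called 1 higher and 2 lower under miR-125b, 1 and 3 under Plus A, 1 and 2 under Trim A, 1 and 1 under Trim AG, and 1 and 1 under Trim AGU, with medians of -0.03 to 0.21. The shares of 42.9%, 57.1%, 42.9%, 28.6% and 28.6% were near that over all genes under Trim AG and Trim AGU and above it under the others.

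**Figure D5:**
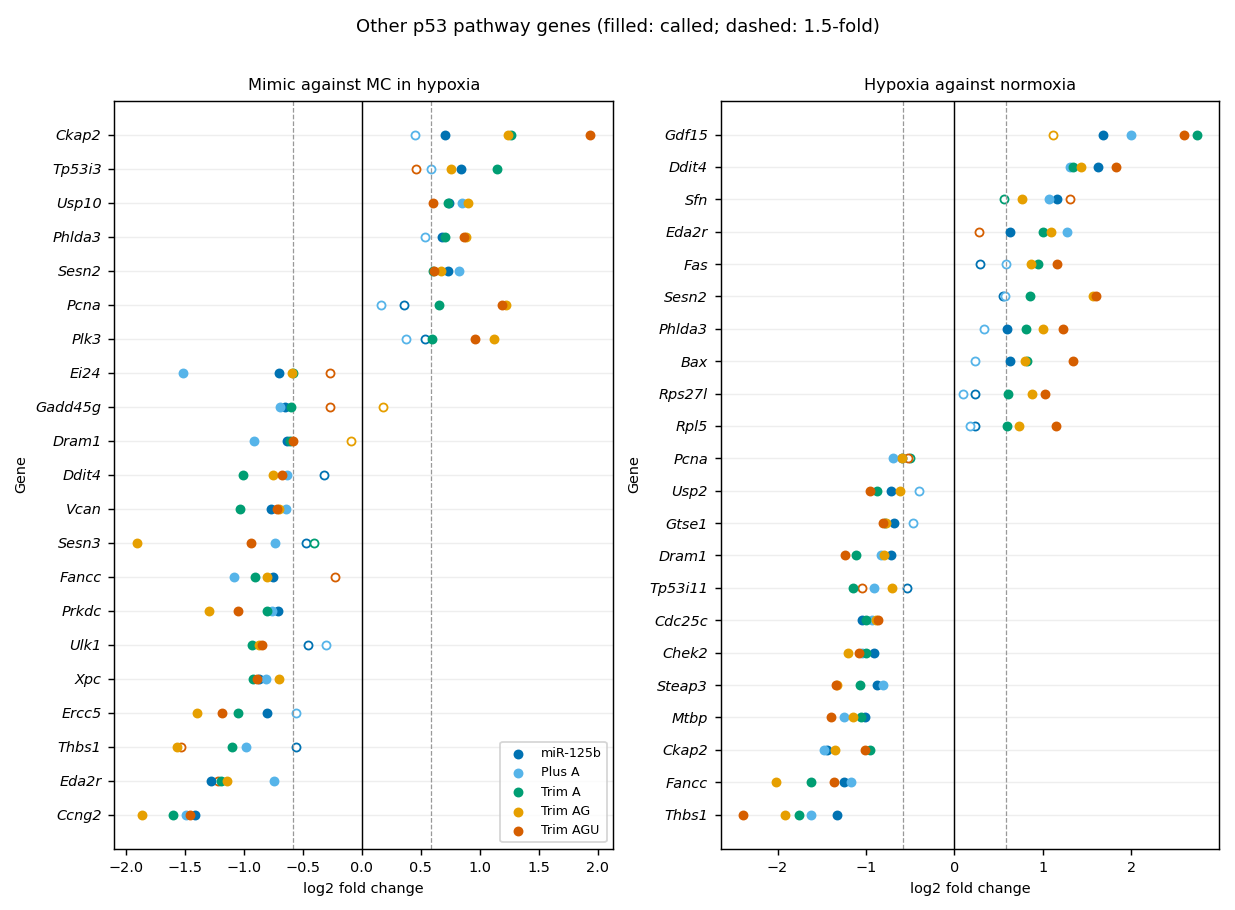
Log2 fold change (horizontal axis) of other pathway genes and paralogs called in the same direction in at least 3 of 5 comparisons, against MC in hypoxia (left) and of hypoxia against normoxia (right), with a colour for each mimic, filled points for called changes and dashed lines at 1.5-fold. *Ccng2* and *Prkdc* lie left of 0 under all 5 mimics in the left panel, where *Usp10* and *Sesn2* lie right of 0, and *Ddit4* lies right of 0 under all 5 in the right panel.

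The named genes whose group means were most like each member were found by Pearson correlation of mean log2(CPM + 1) over the 11 groups, among genes of at least 1 CPM. These points share libraries and the oxygen contrast, so the coefficients are a description. For *Gadd45a* they were *Hmox1* (0.989), *Sult2a1* (0.989) and *Pigy* (0.987). For *Mdm2* they were *Zrsr1* (0.983), *Rnmt* (0.982) and *Prr3* (0.981), and for *Cdkn1a* *Zrsr1* (0.982), *Ppic* (0.980) and *Klf15* (0.979), so *Zrsr1* headed both. For *Ccng1* they were *Aptx* (0.980), *Ccdc47* (0.977) and *Nsfl1c* (0.975). *Tp53inp1* had *Cdk5rap1* (0.966), *Arntl* (0.961) and *Napg* (0.960), and *Tp53inp2* had *Ccdc50* (0.971), *Itga6* (0.963) and *Impa2* (0.958). The lists for *Mdm4*, *Dram2* and *Sesn1* were headed by *Tnpo1* (0.955), *Rab32* (0.979) and *Pigt* (0.975).

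Promoters are shown because *Mdm2*, *Cdkn1a* and *Gadd45a* were all higher in hypoxia. RefSeq promoters of GRCr8, 250 bases before to 50 after the start, were found for 8 of the 9 members (not for *Tp53inp1*). They were searched for the consensus decamer that forms a half-site of the p53 response element and reads alike on both strands. It was in 4 of the 8 members and in 7.98% of all 33465 promoters. The members were chosen for their place in the p53 pathway, so their share is a description. The stretches below hold the decamer in capitals with up to 20 bases on each side, written 5′ to 3′ along the gene.
Cdkn1a: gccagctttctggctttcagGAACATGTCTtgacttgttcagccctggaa
Gadd45a: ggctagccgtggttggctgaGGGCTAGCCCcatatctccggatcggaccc
Ccng1: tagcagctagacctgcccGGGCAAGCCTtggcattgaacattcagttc
Sesn1: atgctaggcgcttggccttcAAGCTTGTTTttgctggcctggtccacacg
They lie at chr20:7150711-7150760 (plus strand, motif 201 to 192 bases before the start), chr4:97486818-97486867 (minus strand, motif 48 to 39 bases before the start), chr10:25685079-25685126 (minus strand, motif 232 to 223 bases before the start) and chr20:46948527-46948576 (plus strand, motif 172 to 163 bases before the start). Of these genes *Cdkn1a* and *Gadd45a* rose in hypoxia under all 5 mimics, *Ccng1* rose under 3 and *Sesn1* under none, while *Mdm2* rose under all 5 with no match in this window. The core ACGTG of the hypoxia response element, on either strand, was in 1 of the 8 promoters (*Dram2*) and in 19.3% of all. A match is a description of letters, and no match says only that they are not in this window.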

How the data were processed

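Per the labels, RNA of transfected H9C2 cells was sequenced without strand after poly-A selection, so reads of a gene and of an antisense partner cannot be told apart. The authors deposited tables with raw counts and FPKM values for each gene and library, made from reads whose tools are named in the submitters' processing notes as HISAT2 and StringTie, with versions and the genome build not given in the sources used here. For Normoxia MC the authors deposited a group mean of normalized counts (a signal scaled by their size factors), used as a description only. The 11 tables with counts were joined by gene identifier over 33 libraries, a gene left out of a table being set to 0 (the largest count of such a gene in another table was 1). Normalized values per library, held in 66 columns, were not used. Columns with the authors' own fold changes and p-values were not used.

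CPM divides counts by the library total. Differences were tested with edgeR's quasi-likelihood test (edgeR 4.0.16 in R 4.3.3, TMM scaling, filterByExpr) on the libraries of the groups compared, with Benjamini-Hochberg adjustment over all 14720 to 15603 genes tested. All 9 members passed the filter in each of the 22 fits (18 comparisons and 4 interactions). A call needs an adjusted p below 0.05 and a change of at least 1.5-fold. Alternatives were DESeq2 1.42.0, no filter, 1 fit of all 33 libraries, a replicate block, no fold threshold, library totals in place of TMM, and each library left out. The scripts were tested on simulated data.

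All 9 members were described. Other pathway genes were named where they were called in 1 direction in at least 3 of 5 comparisons against MC or against normoxia. A few genes that meet this rule are counted in their lists but not reported here by name. Likeness used a pseudocount of 1 CPM and left out genes whose mean was under 1 CPM. The members and lists were chosen with earlier results of these data known.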

Additional observations from a re-analysis of the deposited data

Results flagged for a closer look

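In 6 results the oxygen response of a member differed between an isomiR and miR-125b by the interaction test. For *Gadd45a* the difference of the log2 fold changes was 1.36 under Trim AG and 1.36 under Trim AGU, and both calls held whichever of the 12 libraries was left out. For *Ccng1* it was 0.76 under Trim AG, which also held in each. For *Tp53inp1* it was 0.65 under Trim AG, with an adjusted p (edgeR's quasi-likelihood test) of at most 0.086 over the libraries left out, and the call was lost for 8 of 12 libraries. Under Trim A it was 0.62 for *Mdm2* and 0.60 for *Ccng1*, and each was lost for 11 of 12 libraries, with an adjusted p of up to 0.128. Both held without Hypoxia Trim A replicate 1, at 0.715 (adjusted p = 7.70e-05) and 0.70 (adjusted p = 2.27e-05).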

How the results depend on the processing

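Of 198 member results 55 were called, 43 of them kept the call under each alternative run, and 0 called values changed sign. Without the fold threshold the members called were 7 for miR-125b and 7 for Plus A against MC, 6 for Trim A and 6 for Trim AG against MC, 4 for Plus A and 5 for Trim AG against miR-125b in hypoxia, 3 for Trim A against miR-125b in normoxia, 7 for hypoxia against normoxia under miR-125b, and 5 for the Trim AG interaction. Over all genes the looser rule of an unadjusted p below 0.05 was met by 9603 of 15143, 9228 of 15159, 8898 of 15183 and 9759 of 15315 against MC. Against miR-125b it was met by 4723 of 15134 and 7732 of 15305 in hypoxia and 2758 of 14732 in normoxia. Hypoxia against normoxia under miR-125b had 8529 of 15028, and the Trim AG interaction 5618 of 15603. The Trim A interaction had 1 call with all 33 libraries in 1 fit, 0 with the replicate block and 0 without replicate 1 of Normoxia miR-125b. The Trim AGU interaction had 2 calls by DESeq2 and 2 in the joint fit of 33 libraries. Leaving out each library gave 0 to 1 calls for Trim AG and 0 to 1 for Trim AGU against miR-125b in hypoxia, 0 to 2 for the Trim A interaction and 1 to 3 for the Trim AGU interaction. Replicate numbers did not pair the libraries (correlation of deviations -0.16 to 0.076), and the replicate block changed no other call of a member. Over all genes, the block lowered the calls from 132 to 7 (Trim A against miR-125b, hypoxia), 565 to 54 (Trim AGU against miR-125b, hypoxia), 3995 to 2445 (hypoxia against normoxia, Trim AGU), 3 to 0 (Plus A interaction), 94 to 0 (Trim A interaction) and 150 to 15 (Trim AGU interaction). DESeq2 called 304 in place of 132, 1271 in place of 565, 128 in place of 61 (Trim A against miR-125b, normoxia), 71 in place of 3, 354 in place of 94 and 765 in place of 150. The fit of all 33 libraries called 5373 in place of 3570 (Trim AGU against MC), 128 in place of 307 (Plus A against miR-125b, hypoxia), 211 in place of 132, 2356 in place of 565, 6093 in place of 3995, 0 in place of 3 and 1594 in place of 150. No filter gave 112 in place of 61, 13 in place of 3 and 219 in place of 94, and library totals 0 in place of 3. Leaving out the normoxic replicates 1 that go against their labels gave 166 in place of 0 (Plus A against miR-125b, normoxia), 0 in place of 94 and 32 in place of 150. Library totals moved the median log2 fold change of all genes from -0.016 to -0.15 for Trim AGU against MC (1713 higher and 1857 lower became 1133 and 2217) and from 0.013 to 0.12 for hypoxia against normoxia under Plus A (1503 and 1924 became 2012 and 1546). Under miR-125b the latter split moved from 1403 and 1732 to 1799 and 1449, and in the Trim AGU interaction 95 and 55 became 73 and 65. Causes of these shifts were not tested.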
